A study of Rattus norvegicus with 6 samples.

Results

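The genes described here encode heat shock proteins and chaperonins, the proteins that fold, refold and hold other proteins. Members were the genes with a name beginning Hspa, Hspb, Hspd, Hspe, Hsph, Hsp90, Dnaja, Dnajb, Dnajc or Cct2 to Cct8 in the platform's annotation, if a probe set carried that name alone. There were 69 such genes among the 14217 genes on the arrays, with 106 probe sets between them, and each was represented by the probe set of the highest mean intensity. They fell into 7 families. Hsp70 and Hsp110 had 12 members, Hsp90 had 2, the small heat shock proteins 7, the mitochondrial chaperonin 2, Dnaja and Dnajb together 16, Dnajc 23 and Cct 7. A further 6 probe sets carried a member's name together with another gene's, among them all those of Hspa8, Hsp90aa1 and Hspa1b, and were not analysed here.

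Affymetrix arrays, 1 per sample, were hybridised with total RNA of Sprague-Dawley rat cells of either type: embryonic stem (ES) cells in 3 samples, and cells that the labels call flat pluripotent stem (fPS) cells in the other 3. Both groups shared 1 culture protocol: a medium with N2 and B27 supplements, 10 ng/ml human LIF, 3 μM CHIR99021, which inhibits the kinase GSK3, and 0.5 μM PD0325901, which inhibits the kinase MEK, and feeder layers of mouse embryonic fibroblasts stopped with mitomycin C in medium with 15% fetal bovine serum. No genetic change is given for either group. The labels name neither the lines nor their passage, and do not say whether samples came from separate cultures. The p-values therefore reflect the scatter among these 6 samples alone, and that scatter may be technical. In the description field, fPS samples too are called embryonic stem cells.

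Chaperones work as a relay. Small heat shock proteins hold unfolded chains without using ATP. J-domain proteins (Dnaja, Dnajb and Dnajc) bring clients to Hsp70 and start its ATP cycle, and Hsp110 proteins release the nucleotide again. Hsp90 finishes kinases and receptors, and the barrel-shaped chaperonins, Hspd1 with its lid Hspe1 in mitochondria and the Cct ring in the cytosol, enclose a client while it folds. Part of the genes are switched on by the transcription factor Hsf1 under heat or unfolded protein, and those of the endoplasmic reticulum (ER) by the unfolded protein response. Pluripotent cells are known for a high basal level of chaperones, among them Hspd1 and the Cct subunits.

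The arrays differed in their spread of signal. The median intensity of all probe sets lay between 36.2 and 45.3, and the 75th percentile between 142 (fPS replicate 3) and 198 (ES replicate 3). Of 16 listed markers of pluripotent cells, 10 were measured, Pou5f1 and Nanog not among them; their lowest intensity on any array was 351, and their sum ran from 19289 to 27701 in ES and from 17485 to 22849 in fPS. None of the 10 passed. Their median log2 change was -0.13, with 4 positive signs and 6 negative. Lin28a (mean 1195 in ES and 481 in fPS, log2 change -1.3, adjusted p = 0.0933) and Sox2 (3770 and 1992, -0.97, adjusted p = 0.181) were lower in fPS without overlap. Klf5 (2454 and 3056, 0.32, adjusted p = 0.506) was higher without overlap. Among all genes, 22.6% had no overlap in either direction. All 17 listed markers of fibroblasts, the feeder cell type, were measured. Their sum ran from 6615 to 8804 in ES and from 6443 to 6879 in fPS, none was at 0, and 7 lay below 16 on at least 1 array. Fn1, with a log2 change of -0.42, and Timp1 made up most of that sum. Over the list, 12 of 17 markers had a positive sign, with a median log2 change of 0.30, and Postn (1.20) and Pdgfra (1.12) were more than 2-fold higher in fPS; none passed. The part of feeder RNA in the values below was not tested, and in such bulk samples fewer cells of a type and less RNA per cell cannot be told apart.

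Differences are given as log2 changes, fPS minus ES, of log2(intensity + 16), from limma fitted over all 31042 probe sets that were not controls, with a threshold of 0.05 on the p adjusted over all of them. None of the 69 members passed. Among all genes 0.858% passed. At an unadjusted p under 0.05 limma gave 10 of the 69 members (14.5%), where the share among all genes was 17.5%. The lowest adjusted p of a member was 0.0550. The 95% confidence interval of the change lay within 2-fold in both directions for 49 members, and for the other members it reached beyond 2-fold in at least 1 direction.

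Signs were mixed among the members. Their median log2 change was -0.11, against 0.00051 for the 14148 other genes, and 43 had a negative sign and 26 a positive one. Without the dimmest 50% of probe sets the medians were -0.13 for members and -0.07 for other genes. After quantile normalization they were -0.028 and 0.0145. In 6 members every fPS array lay above every ES array (8.70%, where 11.3% of all genes did), and in 9 members all lay below (13.04%, again beside 11.3%). In either direction these were 21.7% of the members and 22.6% of all genes. A change of at least 2-fold was seen in 4 members (5.80%, with 4.92% among all genes): Hspb1 and Hspa1a were higher and Hspa4 and Dnajb4 lower in fPS cells. With ES replicate 3 and fPS replicate 3 left out together, the median over all members was 0.055.

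**Figure D1:**
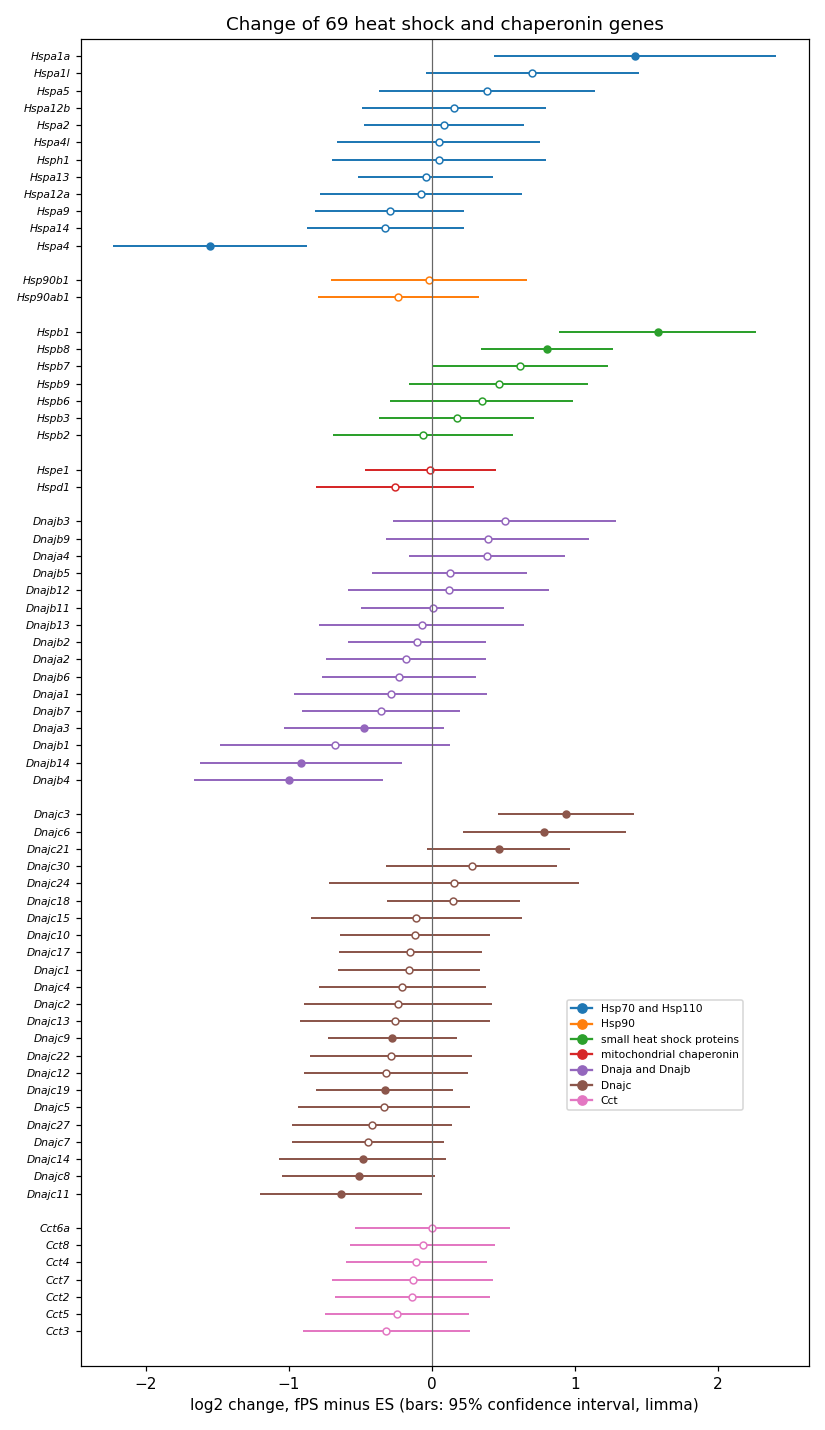
Log2 change, fPS minus ES, of each of the 69 members with its 95% confidence interval from limma, grouped by family; filled points mark the members whose 3 ES and 3 fPS arrays did not overlap. Most intervals cover 0, the small heat shock proteins lie to the right with 6 of 7 above 0, and the Cct subunits cluster between -0.32 and 0.0023.

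The small heat shock proteins lay towards higher values in fPS cells. Of 7 members, 6 had a positive sign, the median log2 change was 0.47, and 0 passed. The median was 0.22 without ES replicate 3 and 0.32 with replicate 3 of both groups left out. With a pseudocount of 64 in place of 16 it was 0.24. Intensities of the 7 probe sets ran from 1.49 to 322.

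Hspb1, which binds unfolded chains and actin filaments, had the largest change of all members. Its intensity was 46.8, 70.7 and 54.4 on ES replicates 1 to 3 and 154, 163 and 322 on the fPS replicates. The lowest fPS array was thus well above the highest ES array, and fPS replicate 3 stood above the other two. The means were 57.3 ± 12.2 (SD, n = 3) and 213 ± 94.4, a log2 change of 1.58 (SE 0.30, 95% interval 0.90 to 2.26, adjusted p = 0.0550). It passed after the dimmest 30% of probe sets were left out (adjusted p = 0.0156), in a range over all alternatives from 0.0108 to 0.20. Hspb1 is also made by fibroblasts, and 12 of 17 fibroblast markers had the same sign, with a median log2 change of 0.30. Among them Postn was at 1.06, 16.2 and 22.7 in ES and at 39.0, 45.0 and 60.6 in fPS, without overlap. Pdgfra was at 19.2, 32.8 and 119 against 97.8, 121 and 135, with overlap. Col1a2 was at 4.03, 53.1 and 712 against 126, 112 and 541, with overlap and means of 256 and 260. The other 5 of the 17 had a negative sign. Of these, Fn1, at 4129, 4217 and 5406 against 3375, 3514 and 3300, was lower without overlap. Col5a1 had a log2 change of -0.63, with overlap. The part of these cells in the values of Hspb1 and the other small heat shock proteins was not tested.

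Hspb8, the partner of Bag3 in sending misfolded proteins to autophagy, was at 45.5, 38.6 and 48.9 in ES and at 93.6, 95.8 and 78.8 in fPS. These groups were apart as well, with little spread within either. The log2 change was 0.81 (SE 0.199, 95% interval 0.35 to 1.26, adjusted p = 0.102). Its other probe set gave 0.39, with overlapping groups. Hspb7, best known from heart muscle, was at 68.0, 132 and 82.8 against 146, 180 and 124, a log2 change of 0.62 (adjusted p = 0.311). Here ES replicate 2 lay above fPS replicate 3. Hspb9, Hspb6 and Hspb3 had log2 changes of 0.47, 0.35 and 0.17, and Hspb2 of -0.058. Hspb2 lay below 16 on all 6 arrays.

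The promoters of Hspb1 and Hspb8 hold the short form of the heat shock element, the site of Hsf1. They are shown as examples, chosen after the values were seen. The searched letters were GAANNTTC and TTCNNGAA on both strands, in the window from 250 bases before to 50 after the start in RefSeq (GRCr8). Of the 69 members, 58 had such a promoter. A match was held by 17 of these (29.3%), against 15.9% of all 33469 promoters. The log2 changes of these 17 had both signs, from -0.68 (Dnajb1) to 1.58 (Hspb1), with -0.42 for Dnajc27 and 0.35 for Hspb6. The matches before the start are in capitals, in chr12:26432373-26432460 (minus strand) for Hspb1 and chr12:45837255-45837307 (plus strand) for Hspb8:
Hspb1: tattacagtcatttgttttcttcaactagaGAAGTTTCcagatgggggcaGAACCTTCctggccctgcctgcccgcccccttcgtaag
Hspb8: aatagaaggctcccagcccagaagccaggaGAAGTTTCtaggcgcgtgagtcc
The same short form in the promoter of Dnajb1 is shown with the J-domain proteins.

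Among the 12 Hsp70 and Hsp110 genes limma gave 2 (16.7%) an unadjusted p under 0.05, in opposite directions, beside 17.5% of all genes. The other 10 had no unadjusted p under 0.05. The family median was 0.049, with 7 positive and 5 negative signs. That sign was not stable. The median was -0.068 when ES replicate 2 was left out, -0.089 when fPS replicate 1 was, -0.011 with arrays centred on their median, -0.026 for the mean over all probe sets of a gene and 0.37 with replicate 3 of both groups left out.

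Hspa1a, the classical stress-inducible Hsp70, was at 130, 392 and 436 in ES and at 744, 605 and 1081 in fPS. The groups did not overlap, but the ES arrays spanned more than a 3-fold range, with replicate 1 lowest. The log2 change was 1.42 (SE 0.431, 95% interval 0.44 to 2.40, adjusted p = 0.167), and 0.90 without ES replicate 1. Its copy Hspa1b is nearly identical, so the probe set may measure both. Hspa1l, a relative of the testis, was at 0.990, 2.03 and 0.488 against 26.4, 14.7 and 0.817, which is at the lower end of the scale; fPS replicate 3 was as low as the ES arrays.

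Hspa4, a nucleotide exchange factor of the Hsp110 type, was lower in fPS cells. It was at 261, 193 and 423 in ES and at 91.7, 96.2 and 68.1 in fPS, so the lowest ES array was about 2-fold above the highest fPS array. The log2 change was -1.55 (SE 0.295, 95% interval -2.22 to -0.88, adjusted p = 0.0552). It passed after quantile normalization (adjusted p = 0.0362) and with arrays centred on their median (adjusted p = 0.0359), in a range over all alternatives from 0.0112 to 0.218.

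Hsph1, another Hsp110, overlapped between the groups. It was at 1840, 1224 and 2450 in ES and at 2377, 2028 and 1267 in fPS. Its log2 change was 0.049, with a 95% interval of -0.69 to 0.79, and the sign turned in several alternatives, such as without ES replicate 2 (-0.21) and with centred arrays (-0.012). Hspa4l, the third exchange factor of the type, was dim, with a log2 change of 0.050. Hspa9, the Hsp70 of mitochondria, was at 2245, 2123 and 2989 against 2064, 2195 and 1698, a log2 change of -0.29 (95% interval -0.81 to 0.22). Of the remaining members, Hspa14 had -0.32, and Hspa2, Hspa12a, Hspa12b and Hspa13 lay between -0.076 and 0.16.

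**Figure D2:**
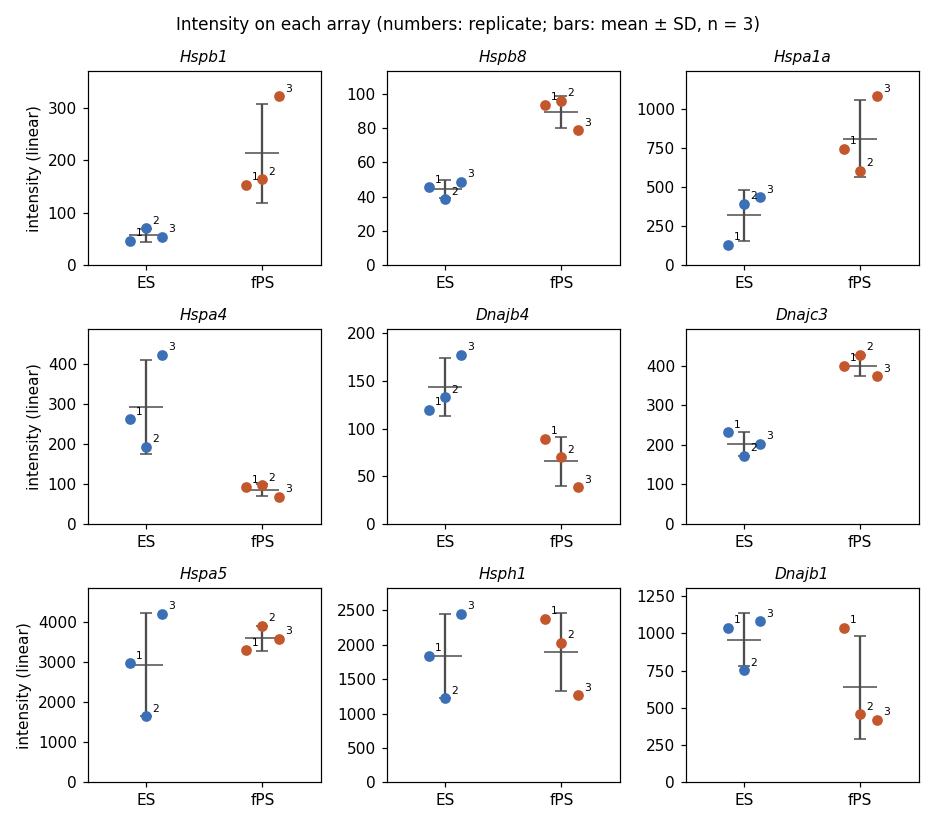
Linear intensity of 9 members on each array, with replicate numbers, for ES (blue) and fPS (orange); bars show the mean ± SD (n = 3). Hspb1, Hspb8, Hspa1a and Dnajc3 have all fPS arrays above all ES arrays, Hspa4 and Dnajb4 all below, and Hspa5, Hsph1 and Dnajb1 overlap.

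Both Hsp90 genes overlapped between the groups. Hsp90ab1, the constitutive cytosolic form, was at 4924, 6214 and 8268 in ES and at 4869, 5382 and 5950 in fPS. ES replicate 3 was the highest, and the other arrays ran from 4869 to 6214. Its log2 change was -0.23 (95% interval -0.79 to 0.32), and -0.039 without ES replicate 3. RefSeq names 23 pseudogenes of Hsp90ab1, so transcripts of close copies may add to the signal. The Hsp90 of the ER, Hsp90b1, was at 2729, 1911 and 4091 against 2787, 3188 and 2299, a log2 change of -0.021 (95% interval -0.70 to 0.66). That sign turned after quantile normalization (0.099), without ES replicate 3 (0.26) and without fPS replicate 3 (0.10).

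The ER members were considered together, a grouping made after the values were seen. The 10 members of the ER had a median log2 change of -0.0074, with 5 signs in each direction. Of the 10, 1 was higher in fPS without overlap (Dnajc3) and 1 lower (Dnajb14), where 22.6% of all genes had no overlap in either direction. Hspa5 (BiP), the Hsp70 of the ER, was at 2979, 1649 and 4217 in ES and at 3304, 3922 and 3589 in fPS. The fPS arrays were close to each other while the ES arrays lay on both sides of them. Its log2 change was 0.39 (95% interval -0.36 to 1.13, adjusted p = 0.643), and 0.021 without ES replicate 2, the low array.

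Dnajc3 (p58IPK), a J-domain partner of Hspa5 that also restrains the stress kinase PERK, had a closer grouping. It was at 231, 173 and 203 in ES and at 399, 428 and 373 in fPS. Every fPS array was above every ES array by a wide margin for the spread within groups. The log2 change was 0.94 (SE 0.205, 95% interval 0.47 to 1.40, adjusted p = 0.0778). It passed without the dimmest 50% of probe sets (adjusted p = 0.0351) and in the fit on the mean over all probe sets of a gene (adjusted p = 0.0463). Dnajc3 has 1 probe set, so that mean left its own values unchanged. Over all alternatives its adjusted p ranged from 0.0351 to 0.309. Dnajb9 and Dnajb11, further J-domain proteins of the ER, had log2 changes of 0.39 and 0.0062, and Dnajc10, which reduces disulphides there, had -0.12.

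Hspa5, Hsp90b1 and Dnajc3 were the members whose promoters held the ER stress element, searched as CCAAT and CCACG with 9 bases between them on either strand. It was found in 3 of 58 member promoters (5.17%) and in 0.0657% of all promoters. The matches are in capitals, in chr3:38452943-38453015 (plus strand) for Hspa5, chr7:23012317-23012499 (minus strand) for Hsp90b1, which held 2 matches, and chr15:102432504-102432582 (plus strand) for Dnajc3:
Hspa5: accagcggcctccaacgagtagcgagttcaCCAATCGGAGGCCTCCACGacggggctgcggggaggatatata
Hsp90b1: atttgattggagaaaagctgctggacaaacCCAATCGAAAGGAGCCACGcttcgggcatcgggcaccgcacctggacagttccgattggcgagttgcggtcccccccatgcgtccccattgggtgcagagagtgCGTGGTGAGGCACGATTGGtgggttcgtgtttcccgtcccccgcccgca
Dnajc3: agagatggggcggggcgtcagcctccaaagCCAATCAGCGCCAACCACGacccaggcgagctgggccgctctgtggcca
The log2 changes of these 3 genes were 0.39, -0.021 and 0.94, with 95% intervals that overlapped.

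Both genes of the mitochondrial chaperonin overlapped between the groups. Hspd1, the barrel, was at 7146, 7439 and 9953 in ES and at 7438, 7762 and 5373 in fPS, a log2 change of -0.26 (95% interval -0.80 to 0.29). ES replicate 3 was the highest and fPS replicate 3 the lowest, and with both left out the log2 change was 0.059. RefSeq names 20 pseudogenes of Hspd1. Hspe1, the lid, was at 5322, 5485 and 4764 against 5374, 5529 and 4599, a log2 change of -0.0085 (95% interval -0.46 to 0.44). The ranges of the 2 groups nearly coincided. The sign of that small change turned after quantile normalization, where it was 0.12.

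Hspd1 and Hspe1 lie head to head on chromosome 9, and 1 stretch of DNA holds the full heat shock element of both. The letters searched were the blocks GAA, TTC and GAA, or TTC, GAA and TTC, each 2 bases apart, on both strands. A match was found in 5 of 58 member promoters (8.62%) and in 0.798% of all promoters. The 5 genes were Hspd1, Hspe1, Hsph1, Dnaja1 and Cct4, in the last 2 after the start. The stretch chr9:64084232-64084309 is read on the plus strand for Hspe1 and holds 2 overlapping matches, shown as 1 run of capitals, and that of Hsph1 is chr12:10427302-10427367 (plus strand):
Hspe1: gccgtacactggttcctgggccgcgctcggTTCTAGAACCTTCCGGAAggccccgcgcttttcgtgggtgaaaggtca
Hsph1: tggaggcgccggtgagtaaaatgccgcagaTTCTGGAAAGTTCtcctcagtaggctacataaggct
The log2 changes of the 5 genes were -0.26, -0.0085, 0.049, -0.29 and -0.11, and in each of them the arrays of both groups overlapped.

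Among the 16 Dnaja and Dnajb genes the median log2 change was -0.14, with 10 negative signs and 6 positive. In 3 of them (18.8%) all fPS arrays lay below all ES arrays, and in 0 above, where 11.3% of all genes did in each direction. Dnajb4, a cytosolic partner of Hsp70, was at 120, 133 and 178 in ES and at 89.2, 69.8 and 38.2 in fPS. The groups were apart, with fPS replicate 3 lowest. Its log2 change was -1.0 (SE 0.287, 95% interval -1.65 to -0.35, adjusted p = 0.147), and -0.58 with replicate 3 of both groups left out.

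Dnajb14, anchored in the ER membrane, was at 124, 129 and 191 against 116, 52.2 and 53.6, a log2 change of -0.91 (95% interval -1.61 to -0.21, adjusted p = 0.202). Only fPS replicate 1 came near the ES arrays. Its other probe sets gave -0.32 and 0.16, and the mean over all of them gave -0.36. Dnaja3, a mitochondrial J-domain protein, was the third, with a log2 change of -0.48.

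Dnajb1, the heat-inducible partner of Hspa1a, was at 1038, 753 and 1081 in ES and at 1038, 456 and 420 in fPS. On fPS replicate 1 it equalled the ES level, and on the other two it lay below. The log2 change was -0.68 (95% interval -1.48 to 0.12, adjusted p = 0.411), and -1.08 without fPS replicate 1. Its other probe set gave -0.18, and the mean over both gave -0.43. Its promoter carries the short heat shock element in chr19:41431142-41431182 (minus strand):
Dnajb1: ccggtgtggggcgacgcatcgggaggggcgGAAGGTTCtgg
The general Hsp70 partners Dnaja1 and Dnaja2 overlapped between the groups. Dnaja1 was at 2843, 2483 and 3336 against 3340, 2445 and 1581, a log2 change of -0.29 (95% interval -0.95 to 0.38), and Dnaja2 at 3506, 2873 and 4841 against 3588, 3160 and 2957, a log2 change of -0.18 (95% interval -0.73 to 0.38). With replicate 3 of both groups left out, these changes were 0.10 and 0.085.

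The Dnajc genes, which share little beyond the J domain, had a median log2 change of -0.24, with 17 of 23 signs negative. Their median stayed below 0 in every alternative, from -0.30 to -0.13. In 3 members (13.04%) every fPS array lay above every ES array and in 5 (21.7%) all lay below, beside 11.3% of all genes in each direction. The 3 were Dnajc3, Dnajc6 and Dnajc21, a factor of ribosome assembly with a log2 change of 0.47. Dnajc6 (auxilin), which strips clathrin from vesicles in neurons, was dim, at 14.4, 27.0 and 18.8 in ES and 59.6, 48.1 and 32.1 in fPS. Its log2 change was 0.79 (95% interval 0.22 to 1.35, adjusted p = 0.178), and its other probe set, with intensities up to 18.4, gave 0.13.

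Of the 5 lower members, Dnajc19 and Dnajc9 also had the highest means of the family. Dnajc19, part of the import motor at the inner mitochondrial membrane, was at 2167, 2098 and 1638 against 1624, 1596 and 1440. ES replicate 3 came within 1% of fPS replicate 1, so the groups barely parted. The log2 change was -0.33 (95% interval -0.80 to 0.14, adjusted p = 0.512). Dnajc9, a co-chaperone that handles histones, was at 2036, 1992 and 2322 against 1836, 1778 and 1617, a log2 change of -0.28 (95% interval -0.72 to 0.17, adjusted p = 0.566). The others were Dnajc11, a mitochondrial membrane protein, with -0.63, Dnajc8, a protein of the spliceosome, with -0.51, and Dnajc14 with -0.48.

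The 8 members that work in mitochondria, again grouped after the values were seen, had a median log2 change of -0.28, and 7 of them a negative sign. The exception was Dnajc30 with 0.28. Groups did not overlap in 3 of the 8, all lower in fPS cells (Dnaja3, Dnajc11 and Dnajc19), where 11.3% of all genes were lower without overlap. The lowest value was on fPS replicate 3 in 5 of the 8, and in 29.5% of the genes that are no members. The 51 members placed in neither organelle had a median of -0.11.

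On their chosen probe sets, the Cct subunits overlapped between the groups in all 7 cases and shared their highest array. Of the 7 measured, 6 had a negative sign, with log2 changes from -0.32 (Cct3) to 0.0023 (Cct6a) and a median of -0.13. Their intensities ran from 2116 to 7392. The intervals of all 7 chosen probe sets lay between -0.89 and 0.54, which leaves out a 2-fold change. A dimmer probe set of Cct6a gave -0.67 (SE 0.44), at 378, 371 and 1308 in ES and 370, 350 and 338 in fPS, without overlap. Other probe sets of Cct5 and Cct8 gave -0.31 and -0.30, with overlap. Cct5 was at 5677, 5496 and 7392 in ES and at 5599, 5465 and 4537 in fPS, a log2 change of -0.24 (95% interval -0.74 to 0.25). Cct4 was at 4531, 3899 and 5620 against 4422, 4317 and 4157, a log2 change of -0.11 (95% interval -0.59 to 0.38). In both, the first and second replicates of the 2 groups lay close together, with ES replicate 3 above them.

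All 7 Cct subunits had their highest value on ES replicate 3 and 6 had their lowest on fPS replicate 3. The same 2 arrays had the highest and the lowest 75th percentile of all probe sets; the part of that spread in the Cct values was not tested. The Cct median was 0.032 without ES replicate 3, 0.011 after quantile normalization and 0.12 with replicate 3 of both groups left out. Tcp1, the remaining subunit of the ring, whose name lies outside the rule, was at 5860, 5087 and 6598 against 5754, 5256 and 3800, a log2 change of -0.26.

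Other families shared this array pattern in part. Of the 69 members, 36 (52.2%) had their highest value on ES replicate 3, against 28.0% of the other genes, and 27 (39.1%) had their lowest on fPS replicate 3, against 29.5%. As a median deviation from each gene's own mean, the members stood at 0.27 on ES replicate 3 and -0.24 on fPS replicate 3, and the other genes at 0.052 and -0.11. The small heat shock proteins did otherwise: none of the 7 was highest on ES replicate 3 or lowest on fPS replicate 3. Their median deviation was -0.37, -0.015 and -0.43 in ES and 0.34, 0.49 and 0.14 in fPS.

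**Figure D3:**
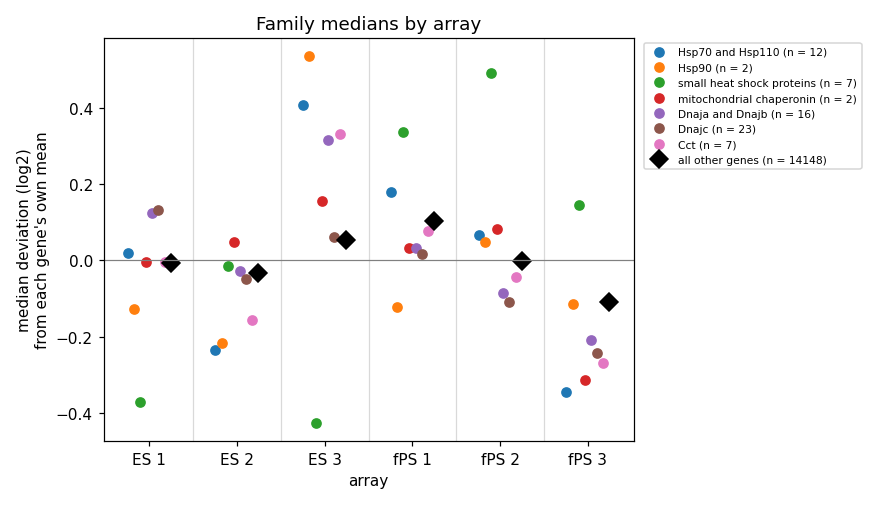
Median deviation of log2(intensity + 16) from each gene's own mean over 6 arrays, by family (coloured points) and for all other genes (black diamonds), on each array. Apart from the small heat shock proteins, families other than Dnajc peak on ES replicate 3, and families other than Hsp90 are lowest on fPS replicate 3; the small heat shock proteins (green) themselves are below 0 on all ES arrays and above 0 on all fPS arrays.

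The partners of these chaperones were read from 5 lists, and 0 genes of any list passed (0.858% of all genes did). At an unadjusted p under 0.05 limma gave 4 of 22, 2 of 18, 3 of 18, 4 of 33 and 1 of 17 genes in the order of the lists below, or 5.88% to 18.2%, beside 17.5% of all genes. Among 22 regulators and Hsp90 co-chaperones the median log2 change was -0.0022. The heat shock factors Hsf1 and Hsf2 had 0.072 and 0.10, and Hsbp1, a small protein that binds Hsf1, had -0.51. Fnip2, which slows the ATP cycle of Hsp90, was at 512, 814 and 875 in ES and at 1692, 2266 and 1683 in fPS, a log2 change of 1.36 (adjusted p = 0.0571). Nudc, a co-chaperone of Hsp90, was at 2361, 2360 and 2733 against 1743, 1026 and 917, a log2 change of -1.06 (adjusted p = 0.111). In both genes the groups did not overlap. Of the 22 genes, 27.3% had no overlap, beside 22.6% of all genes. Ppid, a prolyl isomerase bound to Hsp90, had -0.63, and Tomm34, whose groups overlapped, had -0.70.

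Among 18 genes listed as co-factors of Hsp70 the median was -0.054. That list also held Cryab and Cryaa, small heat shock proteins whose names lie outside the rule. They had log2 changes of 0.76 and 0.11, with overlapping groups. Bag3, which joins Hsp70 to Hspb8, was at 180, 268 and 322 in ES and at 471, 556 and 418 in fPS, a log2 change of 0.90 (SE 0.256, 95% interval 0.31 to 1.48, adjusted p = 0.147). The groups did not overlap, as for the chosen probe set of Hspb8 but not its other one. Without overlap were 11.1% of this list, beside 22.6% of all genes. Sgta, which binds both Hsp70 and Hsp90, had -0.74. Prefoldin, Tcp1 and tubulin cofactors (18 genes) had a median of -0.092. The largest change was that of Uri1, a prefoldin-like protein, with overlapping groups (means 461 and 244, log2 change -0.89, adjusted p = 0.192). Without overlap were 38.9% of these 18 genes, beside 22.6% of all genes. Among them were Pdcl at -0.61, Txndc9 at -0.61, Pdrg1 at 0.53 and Tbce at -0.50.

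In the ER folding list (33 genes, median -0.079) Serpinh1, the collagen chaperone, had the largest change. It was at 42.6, 36.1 and 122 against 176, 157 and 285, a log2 change of 1.53 (SE 0.390, adjusted p = 0.110). Collagen-making cells use Serpinh1; the fibroblast markers had a median log2 change of 0.30, with 12 of 17 positive, and their part in this value was not tested. Fkbp10, Fkbp11 and Erp29 had -0.83, 0.63 and -0.61. Of the ER folding list 24.2% had no overlap, and of the mitochondrial list 29.4%, beside 22.6% of all genes. The mitochondrial list (17 genes) had a median of -0.17. Clpx, the unfoldase of the matrix protease, was at 243, 264 and 407 against 592, 768 and 756, a log2 change of 1.19 (SE 0.252, adjusted p = 0.0714). Among the listed proteases, Lonp1, Oma1 and Htra2 were lower in fPS without overlap, with -0.42, -0.42 and -0.35. Those with overlapping groups had both signs, with -0.37 for Yme1l1, -0.059 for Clpp, -0.0067 for Afg3l2 and 0.19 for Spg7.

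**Figure D4:**
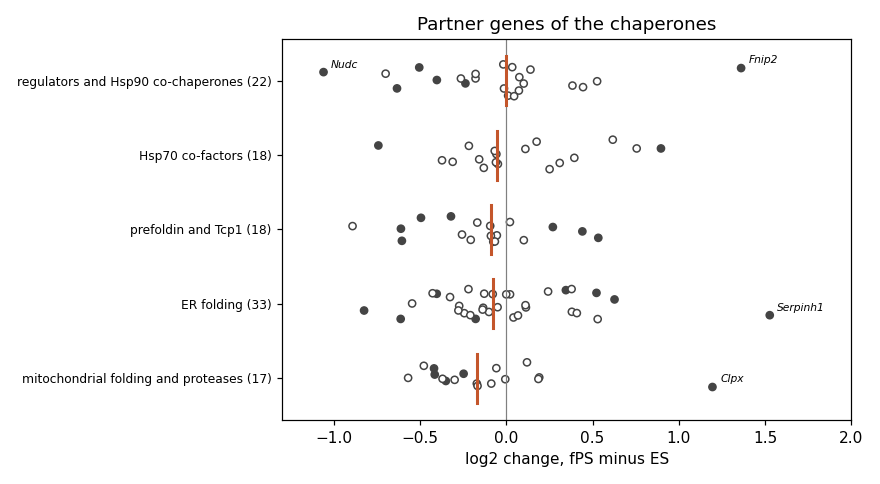
Log2 change, fPS minus ES, of each gene in 5 lists of chaperone partners (number of genes in brackets); filled points mark genes whose groups did not overlap and orange bars the list medians. The medians lie between -0.17 and -0.0022, and Fnip2, Nudc, Serpinh1 and Clpx lie beyond 2-fold.

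Probe sets of 1 gene did not always agree. More than 1 was present for 28 of the 69 members, and for 14 of the 28 the chosen probe set was contradicted in sign by another. Dnajb12, a J-domain protein of the ER membrane, had a log2 change of 0.12 on the chosen probe set and -1.03 on its other one, where the ES arrays read 48.2, 25.4 and 34.1 and the fPS arrays 9.20, 5.01 and 13.4. Dnajc5, a protein of synaptic vesicles, had -0.34 on the chosen and 0.71 and -0.57 on the others. Dnajc11, also among the 14, had -0.63 and -0.73 on its 2 brighter probe sets. Only its dim one, with intensities up to 6.27, had the other sign, at 0.036. In 58 members every array was above 16, 2 members (Hspb2 and Dnajb7) were below it on all arrays, and the remaining 9 lay on both sides.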

How the data were processed

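The authors deposited 1 linear intensity per probe set and array for 6 arrays; how probes were summarised, background-corrected and scaled is not stated in the labels or files. Per the labels' protocols, biotinylated cRNA was made from 6 μg of total RNA. Of 31099 probe sets, 57 controls were left out; 20826 had 1 symbol, 436 several and 9780 none. All 69 members matched RefSeq (GRCr8) and 0 symbols changed. The test was that of limma (3.58.1; R 4.3.3) on log2(intensity + 16), with no further normalization, adjusting by Benjamini-Hochberg; the fit was tested on simulated data. Family values are medians with no test. Figures used matplotlib 3.10.9 in Python 3.11.15. The number of arrays limits the precision.

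The members and lists were chosen with earlier results of these data known. Values on every array are given for any member past the threshold, for the 2 members of highest mean and the 2 of largest change without overlap in each family, for Hspa1a, Hspa1b where measured, Hspb1, Hsph1, Dnajb1, Hspa5 and Hsp90b1, and for the leading genes of the partner lists; of each list, the 4 genes of largest change without overlap (fewer where fewer existed) are named. Uri1, Tomm34, Hsf1, Hsf2, Cryab, Cryaa, the single markers, Hspb9, Hspa1l, Dnajb12 and Tcp1 were chosen after their values were seen. So were the proteases with overlapping groups, other members given by a change alone, all groupings by organelle and the promoters printed. Alternatives were quantile normalization, centring on the median, pseudocounts of 1 and 64, leaving out the dimmest 30% or 50%, trend and robust settings, the replicate block, the mean over probe sets, leaving out _s_at and _x_at probe sets, and leaving out each array; ES replicate 3 and fPS replicate 3 were left out together as an alternative added after seeing the data.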

Additional observations from a re-analysis of the deposited data

How the results depend on the processing

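The number of members past the threshold was 0 with a pseudocount of 1 or 64, with the replicate block, without _s_at and _x_at probe sets and without any single array. It was 1 after quantile normalization and 1 with centred arrays (Hspa4), 2 without the dimmest 30% of probe sets and 2 with trend and robust settings (Hspb1 and Hspa4), and 3 without the dimmest 50% and 3 for the mean over probe sets (Hspb1, Hspa4 and Dnajc3). Over all probe sets the count was 215, and 337 after quantile normalization, 376 with centred arrays, 0 and 41 with pseudocounts of 1 and 64, 759 and 899 without the dimmest 30% and 50%, 619 with trend and robust settings, 107 with the replicate block, 0 with replicate 3 of both groups left out, and 0 to 162 without single arrays. The cause of these shifts was not tested. Hspb1, Hspa4 and Dnajc3 have 1 probe set each, so the mean over probe sets left their own values unchanged.

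The median of the small heat shock proteins was 0.68 and 0.24 with pseudocounts of 1 and 64, 0.62 without the dimmest 30% and 0.62 without the dimmest 50% (5 members left), and 0.22 to 0.63 without single arrays. With replicate 3 of both groups left out, medians were 0.055 for all members, 0.37 for Hsp70 and Hsp110, 0.32 for small heat shock proteins, 0.036 for the mitochondrial chaperonin and 0.12 for Cct. Changes near 0 turned sign: Hsp90b1, Hspe1 and Cct4 after quantile normalization (0.099, 0.12 and 0.055), and Hsph1 with centred arrays (-0.012) and for the mean over probe sets (-0.042). With replicate 3 of both groups left out, Hsp90b1, Hspd1, Hspe1, Dnaja2, Dnaja1 and Cct4 had 0.38, 0.059, 0.013, 0.085, 0.10 and 0.055. Without single arrays the range was -0.29 to 0.26 for Hsp90b1, -0.069 to 0.073 for Hspe1, -0.35 to 0.023 for Dnaja2, -0.23 to 0.032 for Cct4 and -0.21 to 0.31 for Hsph1.

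Same-numbered samples were not treated as pairs: the correlation of their deviations from the group means was 0.15, 0.020 and 0.075 for numbers 1 to 3, and -0.14 to 0.055 for different numbers. The replicate block gave 0 members and 107 probe sets.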
